A study of Mus musculus with 16 samples.

Results

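The comparison described here is the interval from 1 to 3 h of actinomycin D in wild type (WT) mouse blood stem cell cultures. It was made between the 2 WT libraries labelled 3 h and the 2 labelled 1 h, 4 of the 16 libraries of the series, and it was read across all genes. The series holds WT and Nat10-/- cells (labelled as Nat10 deficiency), each at 0, 1, 3 and 5 h with 2 libraries a group. In all groups, lineage-depleted bone marrow cells were kept in StemSpan SFEM with SCF at 10 ng/mL, heparin at 10 µg/mL and antibiotics among the additives, 5 µM actinomycin D was added (the 0 h groups are the start of that series), the stem cells were sorted out at each time, and, per the labels, an equal amount of ERCC spike-in RNA was added before Smart-seq2 libraries were made from polyA RNA. Mouse strain, age and number of animals are not given in the sources used here. The cells are labelled long-term haematopoietic stem cells (LT-HSCs), while the sample titles name 32D cells, a myeloid progenitor line, so the labels do not agree on the material. The labels speak of 2 biological replicates, but both count files of a group name the same alignment in their headers. The p-values below therefore rest on how far the 2 files of one group lie apart, which may be technical.

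Actinomycin D binds DNA and stops RNA polymerases, so mRNA made before its addition is only lost afterwards, and the fall of each mRNA relative to a spike-in reports how fast it decays. mRNAs of immediate-early genes and of many regulators are known to turn over quickly, often through AU-rich elements in the 3′ untranslated region (UTR), while mRNAs of ribosomal proteins, metabolic enzymes and secreted proteins are long-lived. The reading assumes that the same kinds of cells are in the tube at each time. A sorted HSC culture should hold little immunoglobulin RNA, which plasma cells make, or granule protein RNA, which neutrophil and eosinophil precursors make.

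The libraries held 9702619 and 9142413 counts at 3 h, against 13157591 and 10051164 at 1 h, of which ERCC rows took 2.24% ± 0.00 and 2.91% ± 0.02 (mean ± SD, n = 2 each). Immunoglobulin genes took 49.4% ± 0.21 of the gene counts at 3 h and 25.6% ± 0.20 at 1 h. The share stood at 3.62% at 0 h and at 59.5% at 5 h. With 2 libraries against 2, the exact two-sided permutation test gave p = 0.333, the smallest it allows. Per ERCC count, immunoglobulin counts were 21.6 ± 0.11 at 3 h and 8.53 ± 0.02 at 1 h, a ratio of 2.53. The counts of the other genes per ERCC count were 22.1 ± 0.08 at 3 h and 24.8 ± 0.21 at 1 h, a ratio of 0.89. All gene counts together were higher per spike-in at 3 h (43.7 ± 0.03) than at 1 h (33.4 ± 0.20). More genes were detected with at least 1 count at 3 h (29024 and 28520) than at 1 h (25204 and 24336), at lower total depth.

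**Figure D1:**
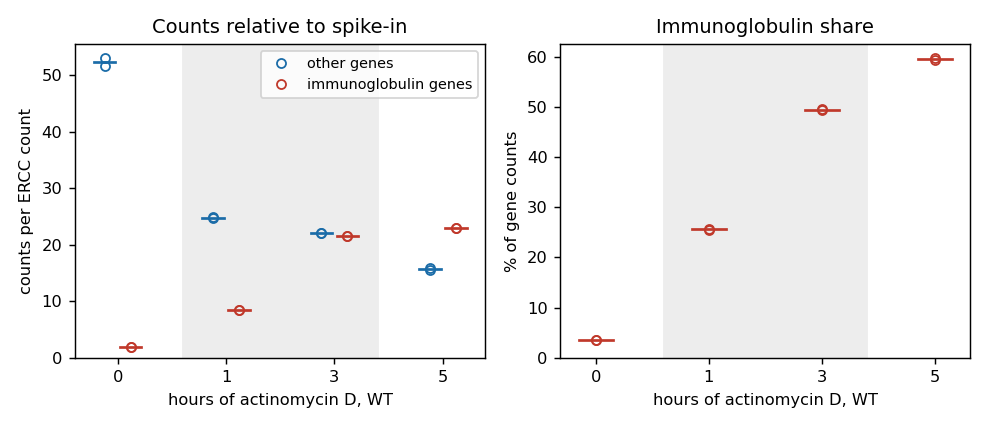
Counts of immunoglobulin genes and of other genes per ERCC count (left) and the immunoglobulin share of gene counts in percent (right) in the WT libraries by hours of actinomycin D. Circles are single libraries, bars are means and the shaded band marks 1 and 3 h. Immunoglobulin counts per ERCC count lie at 21.6 at 3 h and at 8.53 at 1 h, while the other genes lie at 22.1 and 24.8.

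Because the immunoglobulin share differed between the times, each gene was read on 2 scales. The ERCC scale divides by the summed ERCC counts and gives RNA relative to spike-in. The non-immunoglobulin scale divides by the summed counts of genes that are neither ERCC nor immunoglobulin and gives composition among the other transcripts, as CPM of those genes. They rank genes alike, with the ERCC scale lower by 0.17 on the log2 scale. Of 25081 genes tested with edgeR's quasi-likelihood test at an adjusted p under 0.05, 7595 (30.3%) were higher and 9553 (38.1%) lower at 3 h on the ERCC scale. On the non-immunoglobulin scale 8529 (34.0%) were higher and 8342 (33.3%) lower. With at least a 2-fold change as well, 6430 (25.6%) were higher and 5317 (21.2%) lower on the ERCC scale. The counts for each list below are read against these shares. Among the 8079 genes at 20 CPM or more at either time, 1249 (15.5%) were higher and 5540 (68.6%) lower on the ERCC scale, with a median log2 change of -0.51. Summing the 2 files of each group to 1 library leaves no residual degrees of freedom with a mean per group, so the fit on summed files also shared the time effects between WT and Nat10-/- libraries, apart from a linear trend in hours, and had 2 residual degrees of freedom. Its WT changes therefore draw on both genotypes and are not WT values alone. In it 119 genes were higher and 400 lower on the ERCC scale, and 65 were higher and 56 lower on the non-immunoglobulin scale. On the ERCC scale this shared fit called 14 of 50 immediate-early genes lower (median -0.92), 12 of 40 HSC identity genes lower and 1 higher (-1.49), 5 of 22 neutrophil and monocyte genes higher (1.11), 3 of 12 eosinophil genes higher (1.94), 5 of 29 plasma cell genes higher (0.99), and no cytosolic ribosomal protein gene in either direction. The counts per list given below rest on the separate files and a mean per group.

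**Figure D2:**
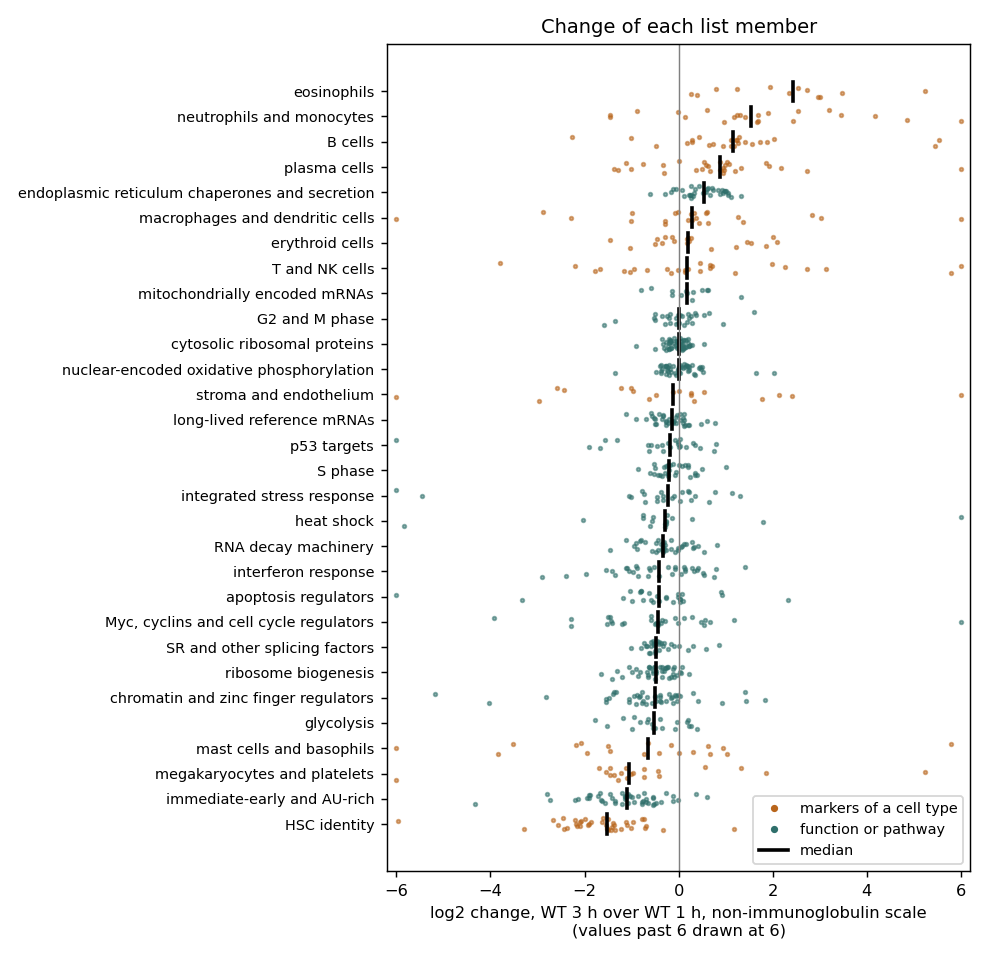
Log2 change from WT 1 h to WT 3 h on the non-immunoglobulin scale for each tested member of the 30 gene lists, with the list median as a bar. Lists are ordered by median, from eosinophil markers (2.44) down to HSC identity genes (-1.53).

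Genes of the list of immediate-early and AU-rich mRNAs fell further in this window. Of 50 members tested, 47 were lower and none higher on the ERCC scale, with a median log2 change of -1.26. The fit called 38.1% of all genes lower, and 68.6% of those at 20 CPM or more, where 45 of the 50 members lay. The members' summed level was 1290 and 1303 counts per 10000 ERCC counts at 3 h, against 3327 and 3395 at 1 h. Nr4a1, an orphan nuclear receptor induced by growth signals, had 4.24 and 3.32 counts per 10000 ERCC counts at 3 h, against 85.4 and 86.7 at 1 h. Its log2 change of -4.50 ± 0.08 (SE) was the lowest of the list among members at 20 CPM or more. Egr1, a zinc finger transcription factor, had 43.7 and 45.1 at 3 h, against 218 and 221 at 1 h (-2.31 ± 0.04). Fos, a subunit of the AP-1 transcription factor, had 70.5 and 70.4 at 3 h, against 288 and 296 at 1 h (-2.05 ± 0.04). These 3 mRNAs were at least 4-fold lower at 3 h, with no overlap between the times. Junb, another AP-1 subunit, fell by less, with 56.2 and 56.97 at 3 h, against 174 and 175 at 1 h (-1.63 ± 0.04). Btg2, an antiproliferative deadenylation cofactor and the most abundant member, had 107 and 113 at 3 h, against 387 and 401 at 1 h (-1.84 ± 0.04). Fosb, also of AP-1, had 125 and 130.3 at 3 h, against 244 and 247 at 1 h (-0.94 ± 0.04). The AP-1 mRNAs thus spread from an apparent half-life of 0.975 h for Fos to 2.12 h for Fosb. Here and below, an apparent half-life is 2 h divided by the size of the log2 fall on the ERCC scale.

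A stretch of each 3′ UTR with the nonamer TTATTTATT, a core AU-rich element, is shown for fast and slower members, so that the element can be read beside the rate. The sequences come from GENCODE M21 transcripts (GRCm38), 5′ to 3′ on the mRNA strand written with T, with the nonamer in capitals.
Csrnp1 (0.845 h, chr9:119972067-119972095, - strand): cactctgaatTTATTTATTtttttatgtt
Zfp36l2 (0.942 h, chr17:84184914-84184942, - strand): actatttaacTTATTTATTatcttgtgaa
Plk2 (0.964 h, chr13:110400734-110400762, + strand): aataaactttTTATTTATTacagccccaa
Fos (0.975 h, chr12:85477103-85477131, + strand): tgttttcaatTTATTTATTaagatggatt
Dusp1 (1.45 h, chr17:26506159-26506187, - strand): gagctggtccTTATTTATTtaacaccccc
Zfp36 (2.11 h, chr7:28376951-28376979, - strand): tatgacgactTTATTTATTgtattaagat
Nfkbia (2.17 h, chr12:55489608-55489636, - strand): ggaccacgttTTATTTATTgtgcttttga
Zfp36l1 (6.81 h, chr12:80108167-80108195, - strand): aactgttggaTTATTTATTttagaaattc
In these 8 examples, chosen for display, the same nonamer stood in mRNAs whose apparent half-lives ran from 0.845 h for Csrnp1, a nuclear protein induced by Axin, to 6.81 h for Zfp36l1. Zfp36, Zfp36l1 and Zfp36l2 themselves encode the proteins that bind this element and recruit deadenylases. Zfp36l2 had 6.40 and 5.81 counts per 10000 ERCC counts at 3 h, against 26.2 and 27.2 at 1 h (log2 change -2.12 ± 0.09). Zfp36 had 90.9 and 90.95 at 3 h, against 173 and 178 at 1 h (-0.95 ± 0.04). Zfp36l1 had 32.8 and 34.8 at 3 h, against 40.8 and 42.1 at 1 h (-0.29 ± 0.06). The 3 family members were all lower at 3 h without overlap, with log2 changes spread over that range. Nfkbia, the inhibitor of NF-kappa-B, was also in the slower range, with 59.7 and 58.4 at 3 h, against 113 and 111 at 1 h (-0.92 ± 0.04).

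Across 7774 protein-coding genes other than immunoglobulin genes at 20 CPM or more, 348 (4.48%) had an apparent half-life under 1 h, 1568 (20.2%) one of 1 to 2 h and 2092 (26.9%) one of 2 to 4 h. A further 1226 (15.8%) lay at 4 to 8 h, 934 (12.01%) over 8 h, and 1606 (20.7%) did not fall. The classes follow the estimate, whether or not it passed the test. Of the 934 over 8 h, 283 were called lower. Of the 1606 that did not fall, 1040 were called higher, and the median log2 change of that class was 0.35. The 2 classes from 1 to 4 h are called intermediate here. The 7-base core TATTTAT (mRNA strand, anywhere in the 3′ UTR, overlapping the nonamer) was in 32.5% of mRNAs under 1 h, 30.1% at 1 to 2 h, 27.3% at 2 to 4 h, 24.1% at 4 to 8 h, 26.7% over 8 h and 27.2% of those with no fall, against 27.5% of all. UTR length differed too, with medians of 1208 bases under 1 h and 815 bases over 8 h. Within the first 500 bases of UTRs at least that long the share was 12.01% under 1 h, 11.5% at 1 to 2 h, 10.6% at 2 to 4 h, 9.44% at 4 to 8 h, 12.8% over 8 h and 12.5% with no fall, against 11.3% of all. On equal lengths the share was lowest at 4 to 8 h and highest over 8 h. Of 45 immediate-early and AU-rich members with a UTR, a list chosen partly for such elements, 60% held the 7-base core and 33.3% the nonamer, against 6.95% of all for the nonamer. None of 49 cytosolic ribosomal protein mRNAs held either, with a median UTR of 95 bases. In the same 500-base windows the complement ATAAATA was in 4.24% under 1 h, 7.20% at 1 to 2 h and 6.26% at 2 to 4 h. It was in 5.59% at 4 to 8 h, 5.66% over 8 h and 7.29% with no fall, against 6.40% of all.

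**Figure D3:**
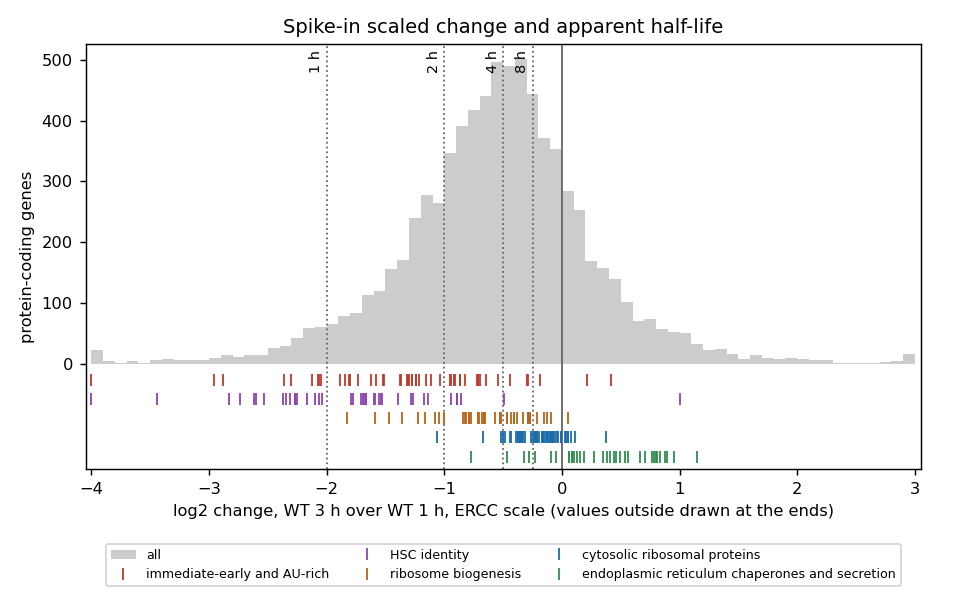
Histogram of the log2 change from WT 1 h to WT 3 h on the ERCC scale over 7774 protein-coding genes at 20 CPM or more. Dotted lines mark apparent half-lives of 1, 2, 4 and 8 h, and the ticks below are members of 5 lists. Immediate-early and HSC identity members lie mostly left of 2 h, ribosomal protein mRNAs near and left of 0, and endoplasmic reticulum chaperones mostly right of 0.

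The abundant mRNAs of 1 to 2 h apparent half-life were of mixed function. Ldha, the lactate dehydrogenase subunit of glycolysis, had 159 and 153 counts per 10000 ERCC counts at 3 h, against 336 and 342 at 1 h (log2 change -1.12 ± 0.04). H3f3b, one of the 2 genes for replication-independent histone H3.3, had 378 and 387 at 3 h, against 787 and 799 at 1 h (-1.05 ± 0.03). Srsf5, a serine- and arginine-rich splicing factor, had 204 and 206 at 3 h, against 457 and 468 at 1 h (-1.17 ± 0.04). All 3 were more than 2-fold lower at 3 h. Eif4h, a cofactor of the translation initiation helicase, had 71.2 and 70.7 at 3 h, against 157 and 159 at 1 h (-1.15 ± 0.04). Adgrg1, an adhesion receptor of blood stem cells, had 164 and 169 at 3 h, against 495 and 488 at 1 h (-1.56 ± 0.04). The files of each group lay far closer to each other than the groups did. The same class held Lyz2, lysozyme of neutrophils and macrophages, at 1.88 h.

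The abundant mRNAs of 2 to 4 h were led by Ddx5, an RNA helicase of splicing and transcription, with 680.4 and 684 counts per 10000 ERCC counts at 3 h, against 1313 and 1345 at 1 h (log2 change -0.96 ± 0.03). Ubb, a polyubiquitin gene, had 703 and 785 at 3 h, against 1046 and 1187 at 1 h (-0.58 ± 0.03). Hnrnpk, an RNA-binding protein of pre-mRNA, had 355 and 366 at 3 h, against 606 and 638 at 1 h (-0.79 ± 0.03). Each of these was lower in both 3 h files than in both 1 h files. Cnbp, a nucleic acid-binding zinc finger protein, had an apparent half-life of 2.50 h, the translation helicase Eif4a1 one of 2.91 h, the chaperone Hspa8 one of 2.71 h, the tubulin Tubb5 one of 3.07 h, and nucleolin (Ncl) one of 3.77 h. Of 30 splicing factors tested, 26 were lower and 3 higher on the ERCC scale, with a median of -0.65, and 19 of the 30 at 20 CPM or more fell in the 2 to 4 h class. Of 42 ribosome biogenesis genes, 39 were lower and none higher, with a median of -0.66. Fbl, the fibrillarin methyltransferase of ribosomal RNA, stood lowest of them, with 9.16 and 10.1 at 3 h, against 34.2 and 33.9 at 1 h (-1.83 ± 0.08). Npm1, nucleophosmin, was at the list's middle, with 84.7 and 91.1 at 3 h, against 138 and 141 at 1 h (-0.66 ± 0.04).

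Regulators of growth and of chromatin lay on both sides. Of 29 Myc, cyclin and cell cycle regulators, 21 were lower and 5 higher on the ERCC scale, with a median of -0.61. Myc, which drives ribosome and metabolic genes, had 19.3 and 21.1 counts per 10000 ERCC counts at 3 h, against 61.2 and 59.9 at 1 h (log2 change -1.58 ± 0.06). Its paralogue Mycn had 3.96 and 5.42 at 3 h, against 24.96 and 26.6 at 1 h (-2.46 ± 0.11). Ccnd3, a D-type cyclin, was near the spike-in, with 73.5 and 74.2 at 3 h, against 82.5 and 84.9 at 1 h (-0.18 ± 0.05). Ccnd2, of the same family, fell by more, with 127 and 122 at 3 h, against 178 and 180.5 at 1 h (-0.52 ± 0.04). Of 45 chromatin and zinc finger regulators, 34 were lower and 4 higher, with a median of -0.68, or -0.66 with the member at 0 set to its bound. Asxl1, a partner of histone H2A deubiquitination, was the highest of them, with 13.03 and 12.6 at 3 h, against 3.69 and 4.50 at 1 h (1.66 ± 0.13). Of 39 RNA decay genes 27 were lower and 3 higher (median -0.49). Of 25 p53 targets 12 were lower and 1 higher (median -0.35), and of 27 apoptosis regulators 16 were lower and 2 higher (median -0.59). Of 24 integrated stress response genes 14 were lower and 4 higher (median -0.40), and of 17 heat shock genes 14 were lower and 2 higher (median -0.46). Of 35 interferon response genes 21 were lower and 5 higher (median -0.59). These shares of lower calls exceeded the 38.1% of all genes, but all genes at 20 CPM or more stood at 68.6%.

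Long-lived classes changed little relative to the spike-in. Of 55 cytosolic ribosomal protein mRNAs, 34 were lower and 2 higher on the ERCC scale with a median of -0.17, while on the non-immunoglobulin scale 19 were lower and 13 higher with a median of 0.00. Their summed level was 7840 and 7911 counts per 10000 ERCC counts at 3 h, against 8849 and 8826 at 1 h. Rpl4, of the large subunit, had 968 and 986 at 3 h, against 1119 and 1116 at 1 h (log2 change -0.19 ± 0.03). Rplp0, the stalk protein, had 1025 and 1051 at 3 h, against 977 and 990.4 at 1 h (0.08 ± 0.03). Both passed the test on the ERCC scale in opposite directions. Rplp0 kept its direction but lost its call with median-of-ratios over the ERCC rows (log2 change 0.0413, adjusted p = 0.507, edgeR), with the ERCC sum without its most abundant row (0.0321, 0.446), without WT 1 h replicate 1 (0.0672, 0.124) and without WT 3 h replicate 2 (0.0587, 0.173). Eef1a1, the main translation elongation factor, had 2797 and 2841 at 3 h, against 3432 and 3474 at 1 h (-0.29 ± 0.03). Of 47 nuclear-encoded oxidative phosphorylation mRNAs, 25 were lower and 9 higher (median -0.17). Atp5b, the catalytic subunit of ATP synthase, had 445 and 450.4 at 3 h, against 493 and 499.8 at 1 h (-0.15 ± 0.03). Mitochondrial transcripts, made by a separate polymerase, were split: mt-Co1, of cytochrome oxidase, had 1445 and 1421 at 3 h, against 1417 and 1444 at 1 h (0.002 ± 0.03). mt-Nd1, of complex I, had 259 and 258 at 3 h, against 506 and 500.2 at 1 h (-0.96 ± 0.03). Of 13 mitochondrial mRNAs 3 were lower and 2 higher (median 0.00).

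Glycolysis was not uniform. Of 20 enzymes and transporters 15 were lower and none higher on the ERCC scale (median -0.69). Gapdh, with 541 and 554 at 3 h, against 528 and 525 at 1 h counts per 10000 ERCC counts, did not pass the test (log2 change 0.06 ± 0.03). Gapdh was called higher when only the 4 WT libraries at 1 and 3 h were fitted (0.0564, adjusted p = 0.0196, edgeR). The same held with the replicate block (0.0560, adjusted p = 0.0215, edgeR). Pkm, the pyruvate kinase, had 262 and 278 at 3 h, against 305 and 318 at 1 h (-0.21 ± 0.04, or 0.11 without a call in the fit on summed files with time effects shared between genotypes). The glucose transporter Slc2a3 was the lowest member, with 18.4 and 17.97 at 3 h, against 71.1 and 69.4 at 1 h (-1.95 ± 0.06). Among the 38 long-lived reference mRNAs 28 were lower and 3 higher (median -0.31). The highest of them was B2m, the light chain of class I molecules, with 1889.7 and 1839.8 at 3 h, against 1243 and 1216 at 1 h (0.60 ± 0.03). Cell cycle phase genes moved little as groups. Of 30 S phase genes 18 were lower and 4 higher (median -0.37). For G2 and M phase it was 16 lower and 5 higher of 30 (median -0.16). Mki67, of proliferating nuclei, had 46.04 and 46.8 at 3 h, against 26.1 and 28.1 at 1 h (0.78 ± 0.06), while Cdc20, of the anaphase-promoting complex, had 35.5 and 36.8 at 3 h, against 41.4 and 39.9 at 1 h (-0.17 ± 0.06). The call of Cdc20 was lost without WT 1 h replicate 1 (log2 change -0.14, adjusted p = 0.0638, edgeR) or without WT 3 h replicate 1 (-0.15, 0.0775).

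**Figure D4:**
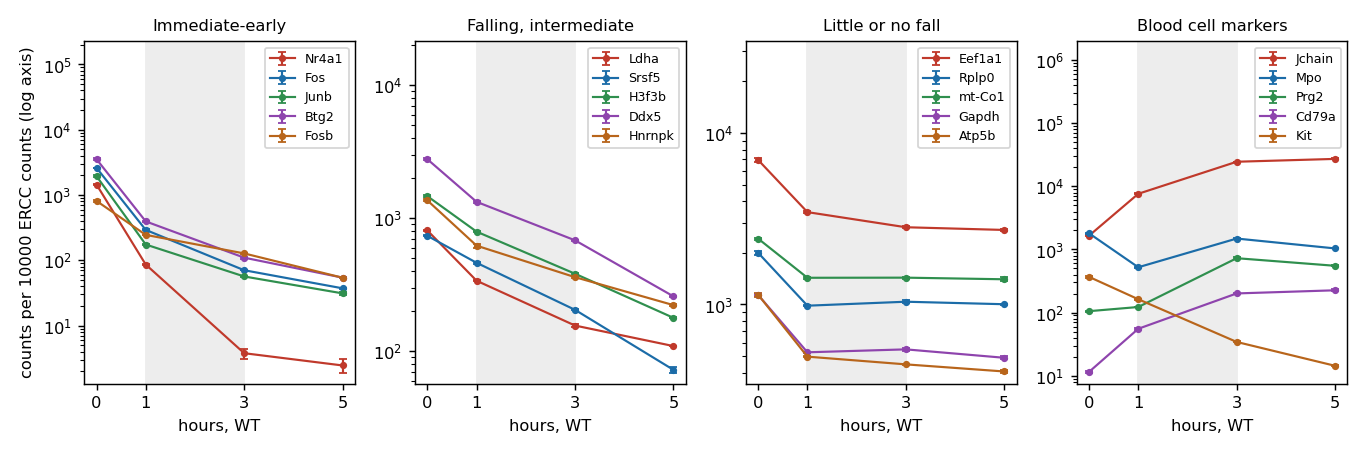
Mean level in counts per 10000 ERCC counts (log axis, ranges differ between panels, bars are SD over 2 libraries) of 20 mRNAs in WT at 0, 1, 3 and 5 h, with the 1 to 3 h window shaded. Fos and Nr4a1 fall at every step, Ldha and Ddx5 fall steadily, mt-Co1 and Rplp0 are nearly flat after 1 h, and Jchain, Mpo and Prg2 are higher at 3 h than at 1 h.

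Genes that identify HSCs fell, nearly as a group. Of 40 members tested, 38 were lower and 1 higher on both scales. Their median log2 change was -1.53 on the non-immunoglobulin scale and -1.70 on the ERCC scale. Of all genes tested, 33.3% were lower and 34.0% higher on the non-immunoglobulin scale. Of genes at 20 CPM or more, where 36 members lay, 68.6% were lower on the ERCC scale. The members' summed level was 2786 and 2776 CPM at 3 h, against 6951 and 6883 CPM at 1 h. Fewer cells of a type and less RNA per cell cannot be told apart in these bulk libraries. Kit, the SCF receptor, had 157 and 152 CPM at 3 h, against 654 and 657 CPM at 1 h (log2 change -2.08 ± 0.04, adjusted p = 1.91e-139, edgeR). Cd34, a sialomucin of progenitors, had 40.97 and 41.2 CPM at 3 h, against 217 and 207 CPM at 1 h (-2.37 ± 0.07). In both the groups were well apart. Procr, a receptor used to sort HSCs, fell by less, with 126 and 136 CPM at 3 h, against 212 and 209.9 CPM at 1 h (-0.69 ± 0.06). Of the transcription factors on the list, Hlf had 27.8 and 32.4 CPM at 3 h, against 139 and 138 CPM at 1 h (-2.20 ± 0.09), and Meis1 had 65.8 and 54.3 CPM at 3 h, against 252 and 265 CPM at 1 h (-2.10 ± 0.06). Gata2, which maintains HSCs and mast cells, had 55.4 and 61.97 CPM at 3 h, against 274 and 257 CPM at 1 h (-2.18 ± 0.06). Cd27, a TNF receptor family member, was the lowest at 20 CPM or more, with 9.82 and 6.18 CPM at 3 h, against 77.6 and 78.8 CPM at 1 h (-3.28 ± 0.13). The member that rose was Ly6a, the Sca-1 antigen that also marks other lymphoid and endothelial cells, with 363 and 363 CPM at 3 h, against 164 and 157 CPM at 1 h (1.17 ± 0.05). Hoxb4, the member not called, had 2.72 and 4.63 CPM at 3 h, against 4.95 and 4.12 CPM at 1 h. On the ERCC scale 15 of the 36 members at 20 CPM or more fell in the class under 1 h. Of all protein-coding genes at that level, without immunoglobulin genes, 4.48% did.

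Immunoglobulin transcripts rose. Of 244 immunoglobulin genes tested 214 were higher and 4 lower on the non-immunoglobulin scale (210 higher and 6 lower on the ERCC scale), with a median of 1.97. Igkc, the kappa light chain constant region, had 574803 and 565131 CPM at 3 h, against 210631 and 207543 CPM at 1 h (log2 change 1.45 ± 0.01). CPM for these genes is counted against the total of the other genes. Heavy chain classes differed in size: Igha, of IgA, had 110656 and 112994 CPM at 3 h, against 21796 and 21389 CPM at 1 h (2.37 ± 0.01). Ighm, of IgM, had 132519 and 130230.00 CPM at 3 h, against 65121 and 64152 CPM at 1 h (1.02 ± 0.01). In each of these 4 files IgA lay below IgM, and it lay closer to it at 3 h. Immunoglobulin segments of the same kind can be near-identical in sequence, so how reads were divided among such segments is uncertain.

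Genes of antibody-secreting cells moved with them, though not all. Of 29 plasma cell genes 21 were higher and 4 lower on the non-immunoglobulin scale (median 0.87). Their summed level was 125330.00 and 124551 CPM at 3 h, against 37306 and 37676 CPM at 1 h. Jchain, which joins IgM and IgA chains, had 111994 and 110889 CPM at 3 h, against 30632 and 30915 CPM at 1 h (1.86 ± 0.01). Xbp1, the transcription factor of the secretory programme, had 2645 and 2625 CPM at 3 h, against 1801 and 1833 CPM at 1 h (0.54 ± 0.02). Sdc1, the CD138 surface proteoglycan, had 1222 and 1278 CPM at 3 h, against 606 and 619 CPM at 1 h (1.03 ± 0.03). Derl3, of endoplasmic reticulum-associated degradation, had 569 and 549.8 CPM at 3 h, against 149.9 and 144 CPM at 1 h (1.93 ± 0.04). Prdm1, the Blimp-1 repressor that sets plasma cell fate, fell, with 12.8 and 9.26 CPM at 3 h, against 26.1 and 28.2 CPM at 1 h (-1.29 ± 0.18). Irf4, a transcription factor of the same cells, also fell, with 74.4 and 92.4 CPM at 3 h, against 165 and 172 CPM at 1 h (-1.01 ± 0.08). Both were lower in both 3 h files than in both 1 h files, while the fit on summed files with time effects shared between genotypes gave them the other sign without a call (0.43 and 0.21). Endoplasmic reticulum chaperones and secretion factors rose in 30 of 35 members and fell in 5 (median 0.55). Hsp90b1, the resident Hsp90, had 3411 and 3336 CPM at 3 h, against 1554 and 1551 CPM at 1 h (1.12 ± 0.02). Dnajb9, a co-chaperone, was the lowest member, with 254 and 217 CPM at 3 h, against 377 and 339 CPM at 1 h (-0.61 ± 0.05).

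B cell genes were also higher, in 17 of 24 members with 3 lower (median 1.15). Cd79a, a signalling chain of the B cell receptor, had 931 and 889.7 CPM at 3 h, against 229.6 and 216 CPM at 1 h (2.03 ± 0.04). Cd74, the class II invariant chain and the most abundant member, had 2769.6 and 2805 CPM at 3 h, against 1168 and 1187 CPM at 1 h (1.24 ± 0.02). Ms4a1, which encodes CD20, had 146 and 139 CPM at 3 h, against 42.1 and 44.4 CPM at 1 h (1.73 ± 0.09). All 3 were higher in both 3 h files than in both 1 h files. T and NK cell genes were divided, with 11 of 26 higher and 8 lower (median 0.17), at a summed 445 and 440 CPM at 3 h, against 377 and 361 CPM at 1 h.

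Neutrophil and monocyte genes and eosinophil genes were mostly higher, and the list of mast cell and basophil genes mostly lower. Of 22 neutrophil and monocyte genes 17 were higher and 3 lower (median 1.54). Mpo, myeloperoxidase of primary granules, had 6713 and 6792 CPM at 3 h, against 2135 and 2077 CPM at 1 h (1.68 ± 0.02). Elane, neutrophil elastase, had 3028 and 3028 CPM at 3 h, against 959 and 929 CPM at 1 h (1.68 ± 0.02). S100a8, a calprotectin subunit of mature neutrophils, had 161 and 160.1 CPM at 3 h, against 30.5 and 28.9 CPM at 1 h (2.43 ± 0.08). The G-CSF receptor Csf3r went the other way, with 29.1 and 31.8 CPM at 3 h, against 81.4 and 86.04 CPM at 1 h (-1.46 ± 0.10). Of 12 eosinophil genes 11 were higher and none lower (median 2.44), at a summed 4197 and 4340 CPM at 3 h, against 771 and 749 CPM at 1 h. Prg2, the major basic protein of eosinophil granules, which plasma cells can also express and which stands on both lists, had 3234 and 3356 CPM at 3 h, against 499.98 and 487 CPM at 1 h (2.74 ± 0.02). Epx, eosinophil peroxidase, had 497 and 514 CPM at 3 h, against 63.9 and 61.98 CPM at 1 h (3.002 ± 0.04). Of 19 mast cell and basophil genes 5 were higher and 12 lower (median -0.65, or 0.07 in the fit on summed files with time effects shared between genotypes). Mcpt8, a basophil protease, had 181 and 185 CPM at 3 h, against 304 and 309 CPM at 1 h (-0.75 ± 0.05, or 0.44 without a call in that shared fit). Ms4a2, the beta chain of the IgE receptor, had 3.76 and 3.75 CPM at 3 h, against 51.97 and 55.9 CPM at 1 h (-3.84 ± 0.20).

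The other lineages differed from one another. Of 20 megakaryocyte and platelet genes 3 were higher and 15 lower (median -1.05), at a summed 1468 and 1425 CPM at 3 h, against 3067 and 3055 CPM at 1 h. All 11 of these members at 20 CPM or more were lower. Vwf, von Willebrand factor of platelets, endothelium and platelet-biased HSCs, had 124 and 122 CPM at 3 h, against 246 and 247 CPM at 1 h (-1.01 ± 0.06). Of 21 erythroid genes 11 were higher and 7 lower (median 0.19, or -0.18 in the shared fit). Their summed level was nevertheless lower at 3 h, with 4334 and 4321 CPM, against 5094 and 4988 CPM at 1 h. On the ERCC scale 7 erythroid genes were higher and 7 lower (median 0.03). Of 23 macrophage and dendritic cell genes 10 were higher and 6 lower (median 0.28). Vcam1, an adhesion molecule of marrow macrophages and stroma, had 153 and 157 CPM at 3 h, against 16.6 and 22.1 CPM at 1 h (3.03 ± 0.09). The part of any such cell in the falls and rises of other genes was not tested.

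The largest single changes were in mRNAs with few counts in the lower group. Among protein-coding genes at 20 CPM or more at one time, Serpinb2, the plasminogen activator inhibitor of monocytes, had 500 counts over the 3 h files and 2 over the 1 h files, a ratio of 450 with a counting interval of 124 to 3724. Map2, a microtubule protein of neurons, had 223 counts at 3 h and 3 at 1 h, a ratio of 134 with an interval of 45.2 to 653. At the other end Rbm12b2, a putative RNA-binding protein, had 0 counts at 3 h and 403 at 1 h, at least 74.7-fold lower at a floor of 3 counts over the group. Snx33, a sorting nexin, had 3 counts at 3 h and 402 at 1 h, a 1 h over 3 h ratio of 74.5 with an interval of 25.3 to 363. Hspa1a, the inducible Hsp70, had 0.418 and 0.441 CPM at 3 h, against 24.6 and 26.3 CPM at 1 h. The 12 highest also held the neutrophil granule gene Ngp, with 168 and 151 CPM at 3 h, against 7.48 and 10.4 CPM at 1 h (4.18 ± 0.13), and S100a9. Of the 12 highest, all 12 were lower again at 5 h than at 3 h on the ERCC scale, against 92.9% of the 7774 protein-coding genes at 20 CPM or more. Of the 12 lowest 8 were higher at 5 h, against 7.11% of those genes. That window shares the 3 h libraries, on which both sets were chosen. Low-level detection moved as well. Of 19522 gene entries at 1 CPM or more in both 3 h files, 2956 (15.1%) had no count in either 1 h file. Of 15994 entries at 1 CPM or more in both 1 h files, 905 (5.66%) had none in either 3 h file. At 10 CPM or more these were 19 of 8871 and 17 of 9352. Gm10800, a predicted gene, was among the most abundant non-immunoglobulin genes, with 24819.8 and 25807 CPM at 3 h, against 7706 and 8303 CPM at 1 h.

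The windows on each side give these values a setting, but they share the 1 h and the 3 h libraries with this one. Among genes at 20 CPM or more the median log2 change on the ERCC scale was -1.05 from 0 to 1 h, -0.51 from 1 to 3 h and -0.82 from 3 to 5 h. The 0 to 1 h fall was alike in every apparent half-life class, with class medians from -1.09 to -0.99. Per hour, the 1 to 3 h change was higher than the 0 to 1 h change in 11402 genes (45.5%) and lower in 4398 (17.5%), and higher than the 3 to 5 h change in 12894 (51.4%) and lower in 2939 (11.7%), by edgeR contrasts at an adjusted p under 0.05. Ribosomal protein mRNAs had medians of -1.12, -0.17 and -0.17 over the 3 windows in time order. Immediate-early mRNAs had -2.33, -1.26 and -1.05. HSC identity genes had -1.22, -1.70 and -1.30, and eosinophil genes -0.25, 2.27 and -2.14. Some genes went up before they went down: Mcpt8 changed by 3.26 from 0 to 1 h and by -0.91 from 1 to 3 h, and Ms4a2 by 2.83 and then -3.995. Mpo and Elane ran the opposite course, with -1.79 and -1.79 from 0 to 1 h and 1.51 and 1.51 from 1 to 3 h.

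**Figure D5:**
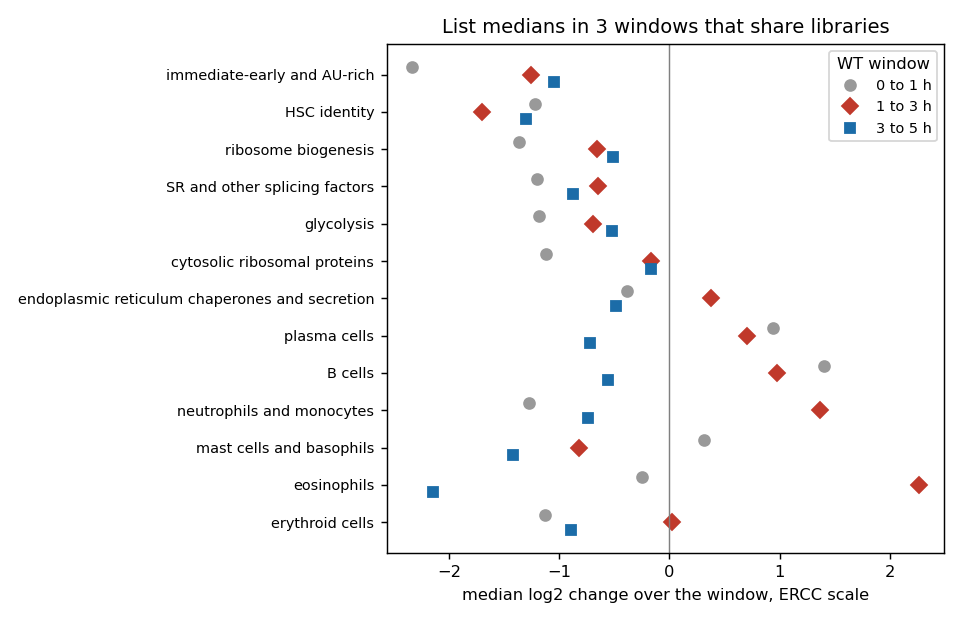
Median log2 change on the ERCC scale over each WT window for 13 lists. The windows share libraries. In the 1 to 3 h window the neutrophil, eosinophil, B cell and plasma cell medians lie right of 0, and the HSC identity and immediate-early medians lie at -1.70 and -1.26.

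The same window in the Nat10-/- libraries was compared by an interaction contrast on the non-immunoglobulin scale. Gene counts per ERCC count were 43.7 ± 0.03 in WT and 1564 ± 19.2 in Nat10-/- libraries at 3 h, and 33.4 ± 0.20 in WT and 1707 ± 5.37 in Nat10-/- libraries at 1 h (SD, n = 2 each), so levels per spike-in were not compared between the genotypes. The Nat10 mRNA itself stood at 72.1 and 61.3 CPM in WT at 3 h, against 129 and 138 CPM in WT at 1 h. In the libraries labelled Nat10-/- it stood at 125 and 128 CPM at 3 h, against 101 and 107 CPM at 1 h, so the gene's counts do not mark the genotype. Which exons are deleted is not given in the sources used here. The WT change was higher than the Nat10-/- change in 6739 genes (26.9%) and lower in 5992 (23.9%). HSC identity genes had a median log2 change of -1.53 in WT and -0.83 in Nat10-/- libraries, and immediate-early genes -1.09 and -0.95. Eosinophil genes had 2.44 in WT and 1.19 in Nat10-/- libraries, and mast cell and basophil genes -0.65 and 0.61. The immunoglobulin share in Nat10-/- libraries was 24.5% at 3 h and 9.02% at 1 h. Kit changed by -2.08 in WT and by -0.81 in Nat10-/- libraries (interaction -1.27 ± 0.05). Mcpt8 changed by -0.75 in WT and by 2.46 in Nat10-/- libraries (-3.20 ± 0.06).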

How the data were processed

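RNA from 16 libraries was measured by Smart-seq2 sequencing. Counts per gene were made by the authors with featureCounts 1.6.3 (paired-end fragments with both mates mapped, without strand, exons summed by gene ID, Ensembl 105 on GRCm39 plus ERCC records), per the file headers. STAR, featureCounts and DESeq2 are named in the submitters' processing notes. These deposited counts are raw, and no row lacked a gene or ERCC name. Unstranded counting cannot separate a gene from an antisense neighbour.

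Symbols and classes came from GENCODE M21 by gene ID (94.1% of gene entries matched), and UTR sequences from its GRCm38 transcripts. Genes kept by filterByExpr over the 8 groups (25081) were fitted with edgeR 4.0.16 in R 4.3.3 with a mean per group over all 16 libraries, library size set to the ERCC total or to the total without ERCC and immunoglobulin genes, the quasi-likelihood test and Benjamini-Hochberg adjustment over all genes at 0.05. SE is the log2 change divided by the square root of F. Scripts were tested on simulated data. The total counts of the 4 libraries ranged from 9142413 to 13157591. Intervals and floors cover counting error only.

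Groups follow the labels. The 2 files of a group differed slightly beyond counting noise (chi-square per degree of freedom 1.43 at 3 h and 1.49 at 1 h). Both were kept, but these values cannot tell biological from technical replicates. The members, the 30 gene lists and the tests were chosen with earlier results of these data known. Named genes are the 12 highest and 12 lowest changes, the most abundant and extreme members of each list, the most abundant immunoglobulin, other and intermediate genes, and the extremes of each contrast. Another 20 (such as Fos, Egr1, Myc, Cd34, Hlf, Derl3, Ms4a1 and the UTR examples) were chosen after their values were seen. Some genes that the rule names are not reported here. Of 884 distinct genes on the lists, 855 passed the filter and were tested. Alternatives were the libraries fitted, DESeq2 1.42.0, a replicate block, summed files, count filters, each library left out and other scalings.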

Additional observations from a re-analysis of the deposited data

Results flagged for a closer look

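Effects that differ between groups by a test of the difference itself are given as values, with no explanation. By the interaction contrast, the 1 to 3 h change was higher in WT than in the libraries labelled Nat10-/- in 6739 genes and lower in 5992, on the non-immunoglobulin scale. Pm20d1 differed most upwards, by 9.57 ± 0.78 on the log2 scale (SE), with 21.7 and 19.6 CPM in WT at 3 h, against 1.26 and 0.962 CPM in WT at 1 h. Serpinb2 differed by 8.53 ± 0.77, Car5b by 7.32 ± 0.60 and Map2 by 7.20 ± 0.69. Serpinb2 and Map2 had 2 and 3 counts in WT at 1 h, and Car5b had a mean of 0.143 CPM in Nat10-/- libraries at 3 h. The fitted values of these genes therefore depend on the handling of low counts. For Pm20d1 only the WT part of the difference is shown. In the downward direction Hspa1a differed by -6.21 ± 0.43, Snx33 by -5.65 ± 0.51 and Cdyl2 by -5.08 ± 0.41. Hspa1a and Cdyl2 had 4 and 5 counts in WT at 3 h, and Snx33 also had few, so the same limit holds for them. Rbm12b2, at 0 counts in WT at 3 h, was at least 74.7-fold lower than in WT at 1 h and changed by -0.43 in Nat10-/- libraries.

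Between the windows of WT, which share libraries, the hourly change on the ERCC scale was higher from 1 to 3 h than from 0 to 1 h in 11402 genes and lower in 4398. It was higher than from 3 to 5 h in 12894 genes and lower in 2939.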

How the results depend on the processing

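Both files of a group name the same alignment. Of the alternatives, the fit on summed files moved the counts most. It changed 2 choices at once, since it also shared time effects between genotypes to keep 2 residual degrees of freedom, and which of them moved a value was not tested. On the ERCC scale 119 genes were then higher and 400 lower (117 and 386 with 2-fold change), and on the non-immunoglobulin scale 65 were higher and 56 lower (64 and 56). At an unadjusted p under 0.05 there were 3784 and 3199. Named genes that turned were Irf4 (0.0284 on the ERCC scale, 0.21 on the non-immunoglobulin scale), Mcpt8 (0.25 and 0.44), Prdm1 (0.25 and 0.43) and Pkm (0.11, ERCC), and so did the non-immunoglobulin medians of mast cells and basophils (0.0714), erythroid cells (-0.18) and stroma and endothelium (0.0171). With at least 10 counts in each library (12570 genes tested) 2384 were higher on the ERCC scale, and 1164 higher and 2570 lower by 2-fold, while on the non-immunoglobulin scale 3153 were higher, and 1453 higher and 1959 lower by 2-fold, and the stroma median was 0.0673. DESeq2's median-of-ratios shifted the non-immunoglobulin scale by 0.29 and the share of higher calls to 63.0% from 50.6%. It turned the medians of long-lived mRNAs (0.15), S phase (0.0937), the integrated stress response (0.0603), p53 targets (0.10), heat shock (0.0043) and stroma (0.17), and Eef1a1 (0.17) and Zfp36l1 (0.17). A total without plasma cell genes shifted it by 0.14 and turned stroma (0.0158), Eef1a1 (0.0131) and Zfp36l1 (0.0117). The immunoglobulin difference of 23.8 percentage points was 27.2 with Jchain counted and 23.5 with ERCC counts in the denominator. Leaving out each replicate moved the ERCC median of macrophages and dendritic cells between -0.0094 and 0.15 and the non-immunoglobulin median of mitochondrial mRNAs between -0.12 and 0.53. With the replicate block 7493 genes were higher and 9511 lower on the ERCC scale, and 8420 and 8288 on the other. Same-numbered files did not deviate together (r = 0.05 over 5931 genes). The files of a group differed by little more than counting noise (chi-square per degree of freedom 1.43 at 3 h and 1.49 at 1 h). The correlation therefore cannot decide whether the numbers pair the libraries. The cause of these shifts was not tested.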
